A study of Mus musculus with 72 samples.

Results

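The genes described here are 8 protein kinase C (PKC) isoforms (Prkca, Prkcb, Prkcd, Prkce, Prkch, Prkci, Prkcq and Prkcz) and 2 RAS guanine-nucleotide exchange factors of the RASGRP family (Rasgrp1 and Rasgrp3). They were taken by symbol, 10 of the 50600 genes of the count table, and not by a cut on a measured value. Earlier results of these data were known when they were chosen. The 72 RNA-seq libraries come from 6 mouse melanoma lines, with 4 treatments and 3 replicates of each. After 18 h of starvation in 0.5% serum, cells received for 4 h either 0.1% DMSO (mock), 10 nM gastrin-releasing peptide (GRP), 1 µM of RC-3095 (RC), an antagonist of the GRP receptor GRPR, or GRP and RC together. Every line carries Tyr::NRASQ61K/°, an activated human NRAS under the tyrosinase promoter, which is active in pigment cells, so RAS was already activated in all groups compared. Lines 1057 and 1064 (female, labelled GRPR-positive) also carry Cdkn2a-/-, Cdh1dF/dF and Tyr::CreA/°, and are the lines in which Cre deleted the E-cadherin gene. Line 1181 (male) carries Cdkn2a-/- and Cdh1dF/dF without Cre, and the labels of line 1014 (female) name neither of these alleles. Both were given plasmids, with Grpr and tGFP (1181-Grpr and 1014-Grpr) or with tGFP alone (1181-Ctrl and 1014-Ctrl), expressed from the CMV promoter rather than from the gene's own. Each line is 1 cell line grown in culture, so the replicates speak for that line and not for other tumours of its genotype.

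PKCs are serine and threonine kinases with 3 classes of regulation. The conventional isoforms, PKCα (Prkca) and PKCβ (Prkcb), need both calcium and the membrane lipid diacylglycerol, the calcium-independent isoforms, PKCδ (Prkcd), PKCε (Prkce), PKCη (Prkch) and PKCθ (Prkcq), need diacylglycerol alone, and the atypical isoforms, PKCι (Prkci) and PKCζ (Prkcz), need neither and work in cell polarity complexes. RASGRP proteins bind diacylglycerol too, and load RAS with GTP when it is made. GRPR couples to Gαq/11 proteins, which activate phospholipase C and so raise calcium and diacylglycerol. In melanocytic tumours of the eye with activated Gαq proteins, PKCδ, PKCε and RASGRP3 are known to carry the signal to the MAP kinases. The measurements here are of RNA, not of kinase activity.

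Between 19512882 and 46862053 reads were counted per library. All 7 melanocyte markers examined (Mlana, Pmel, Tyr, Tyrp1, Dct, Mitf, Sox10) stood at 1 CPM (counts scaled to library size) or more in every library, except that in 1181-Ctrl some libraries had 6 of them at that level. Markers of other cells were examined in 4 lists. Of the leukocyte genes, Ptprc, Cd3e, Cd79a and Itgam never passed 0.383 CPM, but Lyz2 ran from 12 to 52.5 CPM in 1181-Ctrl, 21.6 to 27.9 in 1057, 18.0 to 26.3 in 1181-Grpr, 4.45 to 25.4 in 1064, 1.1 to 2.26 in 1014-Grpr and 0.496 to 1.29 in 1014-Ctrl. Of 3 endothelial genes, Cdh5 reached 6.56 CPM and the others at most 0.465, and the list summed to 4.57 to 6.91 CPM in 1057 and 3.02 to 6.13 in 1064 but to at most 0.659 in the other lines. Of 3 fibroblast genes, Pdgfra reached 7.23 CPM in 1057, and the sum of 3 keratinocyte genes stayed at or under 4.18 CPM in all lines. The part of such cells in the differences between lines was not tested. Over all treatments, Grpr ran from 187 to 276 CPM in 1057, 469 to 1273 in 1064, 108 to 632 in 1014-Grpr and only 8.46 to 80.7 in 1181-Grpr, with at most 0.0914 in either control line. It was not fixed within a line. From mock to GRP it went from 108 to 141 up to 398 to 632 CPM in 1014-Grpr, and from 8.46 to 17.9 up to 19.0 to 80.7 in 1181-Grpr. In 1064 it went from 780 to 1273 down to 469 to 516 CPM, and in 1057 from 273 to 276 down to 196 to 209. Of the 72 libraries, 2 went against their labels and were left out of the values below unless stated. The library labelled 1014-Ctrl mock replicate 2 held Grpr at 48.1 CPM and the Y-linked gene Ddx3y at 64.3 CPM, and the library labelled 1181-Grpr GRP+RC replicate 2 held no count of either and Xist, the RNA of the inactive X chromosome, at 796 CPM. The 11 other libraries of 1181-Grpr carried Xist at 192 to 251 CPM although the line is labelled male, against 0.0282 to 0.639 CPM in 1181-Ctrl and 582 to 1248 CPM in the 1014 lines.

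Which isoforms the cells express was first read in the mock libraries, per transcript length (TPM), which allows genes to be compared. Of the 8 isoforms, Prkci, Prkca, Prkcd and Prkce supplied most of the summed PKC TPM in each line. Prkci had the largest share of summed PKC TPM in 1057 (49.0% ± 0.434, SD, n = 3), 1064 (39.7% ± 1.29, n = 3), 1014-Grpr (32.1% ± 1.46, n = 3) and 1014-Ctrl (30.3% ± 0.580, n = 2). In 1181-Ctrl the largest share was that of Prkca (36.2% ± 4.4, n = 3), with Prkci at 21.7% ± 3.70. In 1181-Grpr the shares of Prkca (31.1% ± 2.55) and Prkci (30.4% ± 1.20) differed by less than their SDs. Prkca held only 11.7% ± 0.235 in 1057 and 8.59% ± 1.44 in 1064. The scarcer isoforms Prkcq and Prkcz never passed 8.22% and 7.26% in a mock library, and Prkch stayed at or under 0.659%. With all 72 libraries kept, the mean TPM of 1014-Ctrl for Prkcz was 2.52 in place of 1.21, and for Prkci 44.6 in place of 41.4.

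**Figure D1:**
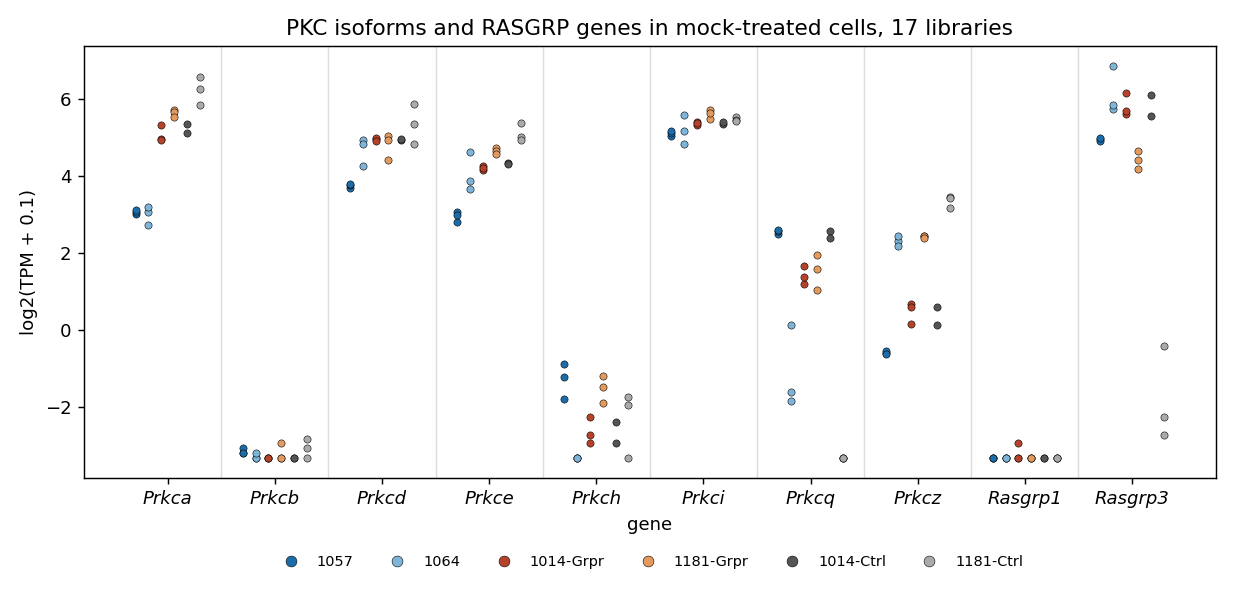
Level of each gene in mock-treated cells, as log2(TPM + 0.1) on the y axis and genes on the x axis, 1 point per library, coloured by line (n = 3 per line, 2 in 1014-Ctrl). Prkci stood at a similar height in all lines, Prkca was lower in 1057 and 1064 than elsewhere, Prkcq and Rasgrp3 dropped in 1181-Ctrl, and Prkcb and Rasgrp1 lay at the bottom throughout.

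Prkcb and Rasgrp1, isoform and exchange factor best known from lymphocytes, were at the limit of detection. Prkcb never had more than 5 counts in a library and Rasgrp1 never more than 2, where 3 counts, at most 0.159 CPM, were taken as the floor, and neither passed the filter on low counts in any fit. Prkch was low as well, with at most 23 counts, above the floor in 35 of 70 libraries. In 1064 it had no count in 11 of 12 libraries, whereas the 12 libraries of 1057 ran from 0.222 to 0.736 CPM.

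Between lines the other isoforms ranged from flat to strongly line-dependent. All 15 pairs of lines were compared in 1 fit of the 17 mock libraries, in which 48.2% of all gene tests passed at a Benjamini-Hochberg adjusted p under 0.05 (edgeR quasi-likelihood test), and the 8 isoforms and exchange factors tested passed in 65 of 120 tests. Of all genes, 55.1% passed between 1057 and 1064, and 62.1%, 61.2%, 56.5% and 64.5% between 1057 and 1014-Grpr, 1181-Grpr, 1014-Ctrl and 1181-Ctrl. Between 1064 and the same 4 lines 59.3%, 59.8%, 54.1% and 62.7% did. Between a 1014 and an 1181 line the share was 36.8% for the Grpr lines, 49.4% for the control lines, 53.5% for 1014-Grpr with 1181-Ctrl and 32.1% for 1181-Grpr with 1014-Ctrl, and within the pairs it was 0.234% for 1014 and 16.3% for 1181. Prkci passed in 0 of 15 pairs, the largest difference being 0.20 on the log2 scale (smallest adjusted p = 0.212). Its mock means ran from 62.3 ± 0.202 CPM (SD, n = 2) in 1014-Ctrl to 72.2 ± 6.16 (n = 3) in 1181-Grpr, and no neighbours in that order differed. Prkca passed in 12 pairs. It was highest in 1181-Ctrl (127, 225 and 176 CPM), lower in 1181-Grpr (124, 123 and 112), then 1014-Ctrl (85.9 and 97.8) and 1014-Grpr (78.0, 76.0 and 96.4), and lowest in 1057 (24.5, 24.2 and 24.8) and 1064 (22.8, 18.8 and 27.8). The step from 1014-Grpr down to 1057 was 1.77 (log2, adjusted p = 5.15e-07) and that from 1181-Ctrl to 1181-Grpr 0.56 (adjusted p = 0.0360), while 1181-Grpr and 1014-Ctrl, the 1014 lines, and 1057 and 1064 were not told apart from each other. Thus the pair of lines with Tyr::CreA/° had the least Prkca and no mock library of theirs overlapped with those of another line. Deletion of E-cadherin and line of origin cannot be told apart in this contrast.

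The diacylglycerol-responsive isoforms Prkcd and Prkce were lowest in 1057. Prkcd stood there at 21.6, 22.2 and 22.3 CPM, under all other mock libraries, of which 1181-Grpr was the next line (27.8, 43.4 and 41.0 CPM, log2 step 0.76, adjusted p = 0.0113). The other 5 lines did not differ between neighbours, and Prkcd passed in 5 of 15 pairs. Prkce stood at 17, 19.9 and 18.4 CPM in 1057 and next at 38.5, 35.3 and 35.3 in 1014-Grpr (log2 step 0.99, adjusted p = 0.000131), stood higher in lines whose neighbours did not differ, and was highest in 1181-Ctrl at 74.4, 60.9 and 57.2 CPM, passing in 8 pairs.

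Prkcq, Prkcz and Rasgrp3 differed between lines as well. Prkcz passed in 13 of 15 pairs and ran from 1.19, 1.21 and 1.13 CPM in 1057 and 1.75 and 2.40 in 1014-Ctrl, through 2.63, 2.49 and 1.72 in 1014-Grpr, to 8.91, 9.09 and 8.74 in 1181-Grpr, 9.38, 11 and 9.71 in 1064 and 13.9, 17.9 and 17.5 in 1181-Ctrl. The steps between the 1014 lines and between 1181-Grpr and 1064 did not pass. Prkcq passed in 11 pairs. Its 3 mock libraries of 1057 held 13.2, 13.6 and 13.8 CPM, those of 1064 only 2.19, 0.530 and 0.447, and those of 1181-Ctrl no count at all, so that 1057 was at least 118-fold higher than 1181-Ctrl when the floor is set at 3 counts per library. Rasgrp3 passed in 10 pairs. It was high and uneven in 1064 (80.9, 185 and 96.6 CPM), stood at 64.0 and 90.0 in 1014-Ctrl, 66.8, 96.5 and 67.2 in 1014-Grpr and 52.0, 48.5 and 50.8 in 1057, was lower in 1181-Grpr (32.5, 27.8 and 23.7, log2 step from 1057 0.85, adjusted p = 0.0397), and was nearly absent from 1181-Ctrl (0.805, 0.0610 and 0.137). Replicate 2 of 1064 was the highest under every treatment (185, 188, 240 and 245 CPM), so the spread of Rasgrp3 in 1064 lay between replicates rather than between treatments. With all 72 libraries kept, 59 in place of 65 of these tests passed.

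Whether the plasmid with Grpr went along with a change of these genes was asked by comparing each Grpr line with its control line in mock-treated cells. In 1181, 4 of 8 genes tested passed, where 18.9% of all genes did. Rasgrp3 was higher in 1181-Grpr in all 3 libraries, by 6.37 ± 0.828 on the log2 scale (SE, adjusted p = 1.86e-05, edgeR), and Prkcq was at least 47.3-fold higher. Prkcz was lower by a log2 difference of -0.91 ± 0.127 (adjusted p = 4.51e-05), and without overlap of the libraries. Prkce was lower by -0.43 ± 0.117 (adjusted p = 0.0135), and did not pass without replicate 2 (adjusted p = 0.0874) or 3 (adjusted p = 0.0923), nor in the 6-line fit of mock libraries (-0.40, adjusted p = 0.123). Prkca, at -0.58 ± 0.208 (adjusted p = 0.0592), passed with DESeq2 (adjusted p = 0.0466) and in 1 fit of all lines (adjusted p = 0.0271), as it did in the 6-line fit. With all 72 libraries kept, Prkcz had the same direction but an adjusted p of 0.0963. In each of these 5 genes 1181-Grpr lay on the side of 1181-Ctrl towards the 1014 lines. Xist and the melanocyte markers moved with this contrast too, the summed markers standing at 13008 to 16206 CPM in 1181-Grpr, 5382 to 5917 in 1181-Ctrl and 29232 to 37908 in the 1014 lines. The part of Xist-carrying cells in the Prkcq and Rasgrp3 of 1181-Grpr was not tested, and in bulk RNA fewer cells and less RNA per cell cannot be told apart.

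**Figure D2:**
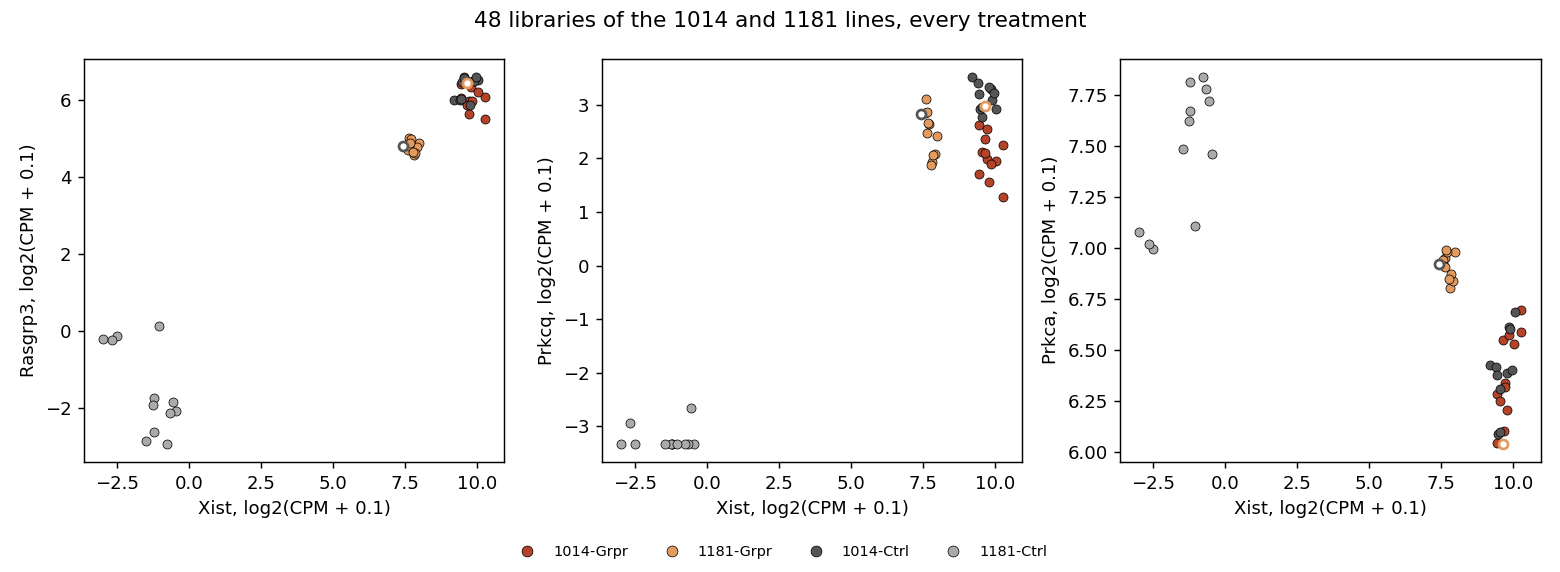
Rasgrp3, Prkcq and Prkca (y axes) against Xist (x axes), all as log2(CPM + 0.1), with 1 point for each of the 48 libraries of the 1014 and 1181 lines and open points for the 2 libraries that went against their labels. The 1181-Grpr libraries lie between 1181-Ctrl and the 1014 lines in Xist and Prkca. In Xist, Rasgrp3 and Prkca the open point of each line lies near the libraries of the other. In Prkcq, where 1014-Ctrl and 1181-Grpr overlap, the open points (7.02 and 7.78 CPM) lie within the ranges of both.

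In 1014, 1 of 7 genes passed, where 2.26% of all genes did. Prkcq was lower in 1014-Grpr (6.04, 4.25 and 4.68 CPM) than in 1014-Ctrl (11.4 and 9.74 CPM), a log2 difference of -1.09 ± 0.214 (adjusted p = 0.00880). The library left out held 7.02 CPM, and with it the difference was -0.92 (adjusted p = 0.0269). It did not pass in the 6-line fit of mock libraries (adjusted p = 0.904), nor without replicate 1, 2 or 3 (adjusted p = 0.0668, 0.147 and 0.123). Rasgrp3 had a log2 difference of -0.01 ± 0.269 and did not pass.

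The promoters of 4 genes whose levels changed after GRP in at least 1 line are shown for the DNA around their start sites. In GRCm38 (GENCODE M21) the 4 genes lie as follows: Prkcd (ENSMUSG00000021948) at chr14:30595354-30626210, Prkcq (ENSMUSG00000026778) at chr2:11172108-11301222, Prkcz (ENSMUSG00000029053) at chr4:155260129-155361361 and Rasgrp3 (ENSMUSG00000071042) at chr17:75435896-75529054. RefSeq (GRCm38.p6) gave 12 start sites for 8 of the 10 genes, each with 250 bases before and 50 after. The counts are per gene and do not tell which start was used. Capitals mark matches, on either strand, to 6 motifs: TGACTCA (the AP-1 site, a classical element of PKC-responsive genes), TGACGTCA (the cAMP response element), CACGTG (an E-box that MITF, the melanocyte factor, can bind), CATGTG (another such E-box), GGGCGG (the GC box) and TATAAA (the TATA box).
Prkcd (chr14:30626159-30626458, minus strand): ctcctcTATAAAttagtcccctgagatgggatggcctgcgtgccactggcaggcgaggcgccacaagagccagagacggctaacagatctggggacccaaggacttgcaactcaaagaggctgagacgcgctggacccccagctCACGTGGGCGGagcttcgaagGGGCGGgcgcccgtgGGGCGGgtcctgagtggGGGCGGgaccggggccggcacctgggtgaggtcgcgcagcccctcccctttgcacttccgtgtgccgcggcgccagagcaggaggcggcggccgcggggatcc
Prkcq (chr2:11172132-11172431, plus strand): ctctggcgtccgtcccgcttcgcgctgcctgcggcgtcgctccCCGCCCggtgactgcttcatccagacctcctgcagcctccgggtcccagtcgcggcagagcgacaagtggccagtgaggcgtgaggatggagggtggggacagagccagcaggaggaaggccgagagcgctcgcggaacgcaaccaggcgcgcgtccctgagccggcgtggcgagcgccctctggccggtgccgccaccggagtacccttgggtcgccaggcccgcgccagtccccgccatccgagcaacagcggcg
Prkcz (chr4:155345740-155346039, minus strand): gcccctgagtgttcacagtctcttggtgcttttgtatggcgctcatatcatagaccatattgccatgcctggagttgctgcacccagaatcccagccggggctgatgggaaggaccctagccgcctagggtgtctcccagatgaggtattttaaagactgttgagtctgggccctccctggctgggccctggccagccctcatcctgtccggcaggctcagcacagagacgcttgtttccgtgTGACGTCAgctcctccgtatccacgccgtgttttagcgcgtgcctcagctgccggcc
Rasgrp3 (chr17:75435655-75435954, plus strand): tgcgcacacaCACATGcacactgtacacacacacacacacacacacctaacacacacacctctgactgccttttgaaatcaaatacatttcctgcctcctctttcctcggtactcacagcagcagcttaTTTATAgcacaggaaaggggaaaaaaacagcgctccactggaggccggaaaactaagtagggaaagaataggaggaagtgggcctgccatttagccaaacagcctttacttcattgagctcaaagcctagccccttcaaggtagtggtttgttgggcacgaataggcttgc
In the Prkcd window, 1 of 2 for this gene, a CACGTG shares its last base with the first of 4 GC boxes, and a TATAAA lies farther from the start. The other window of Prkcd (chr14:30610261-30610560, minus strand) holds no match to any of the 6. In Prkcq, which fell, the only match is 1 GC box. The Prkcz window, 1 of 3 for this gene, has a start not found in GENCODE, and holds a TGACGTCA whose first base is at position -7. The other windows of Prkcz hold GC boxes alone, 2 in the one whose start is in GENCODE and 3 in the one whose start is not. The Rasgrp3 window, 1 of 2, holds a CATGTG and a TATAAA, both on the other strand, and the other window of Rasgrp3 holds no match. Of all 32851 promoters of the same length, 7.15% hold CACGTG, 1.79% TGACGTCA, 14.2% CATGTG, 35.7% GGGCGG and 13.6% TATAAA. The AP-1 letters, held by 5.2% of promoters, are in none of the 12 windows, which says nothing of sites outside them.

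The response to GRP was then compared with mock, line by line. The isoforms did not move as a group. Prkcd, coding for PKCδ, rose in 1057 and 1014-Grpr, Prkcq, coding for PKCθ, fell in the same lines, Rasgrp3 fell in 1057, and Prkcz fell in 1014-Grpr. In 1057, 3 of the 8 genes tested passed, a smaller share than the 52.6% of all genes that did. In 1014-Grpr 4 of 7 passed (29% of all genes), in 1064 0 of 7 (6.38% of all genes), in 1181-Grpr 0 of 8 (0% of all genes, with 110 of 14770 at an unadjusted p under 0.05). Same-numbered replicates of 1064 and 1014-Grpr deviated together, and with the replicate number as a block 3 of 7 passed in 1064 (43.5% of all genes) and 5 of 7 in 1014-Grpr (53.6% of all genes).

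**Figure D3:**
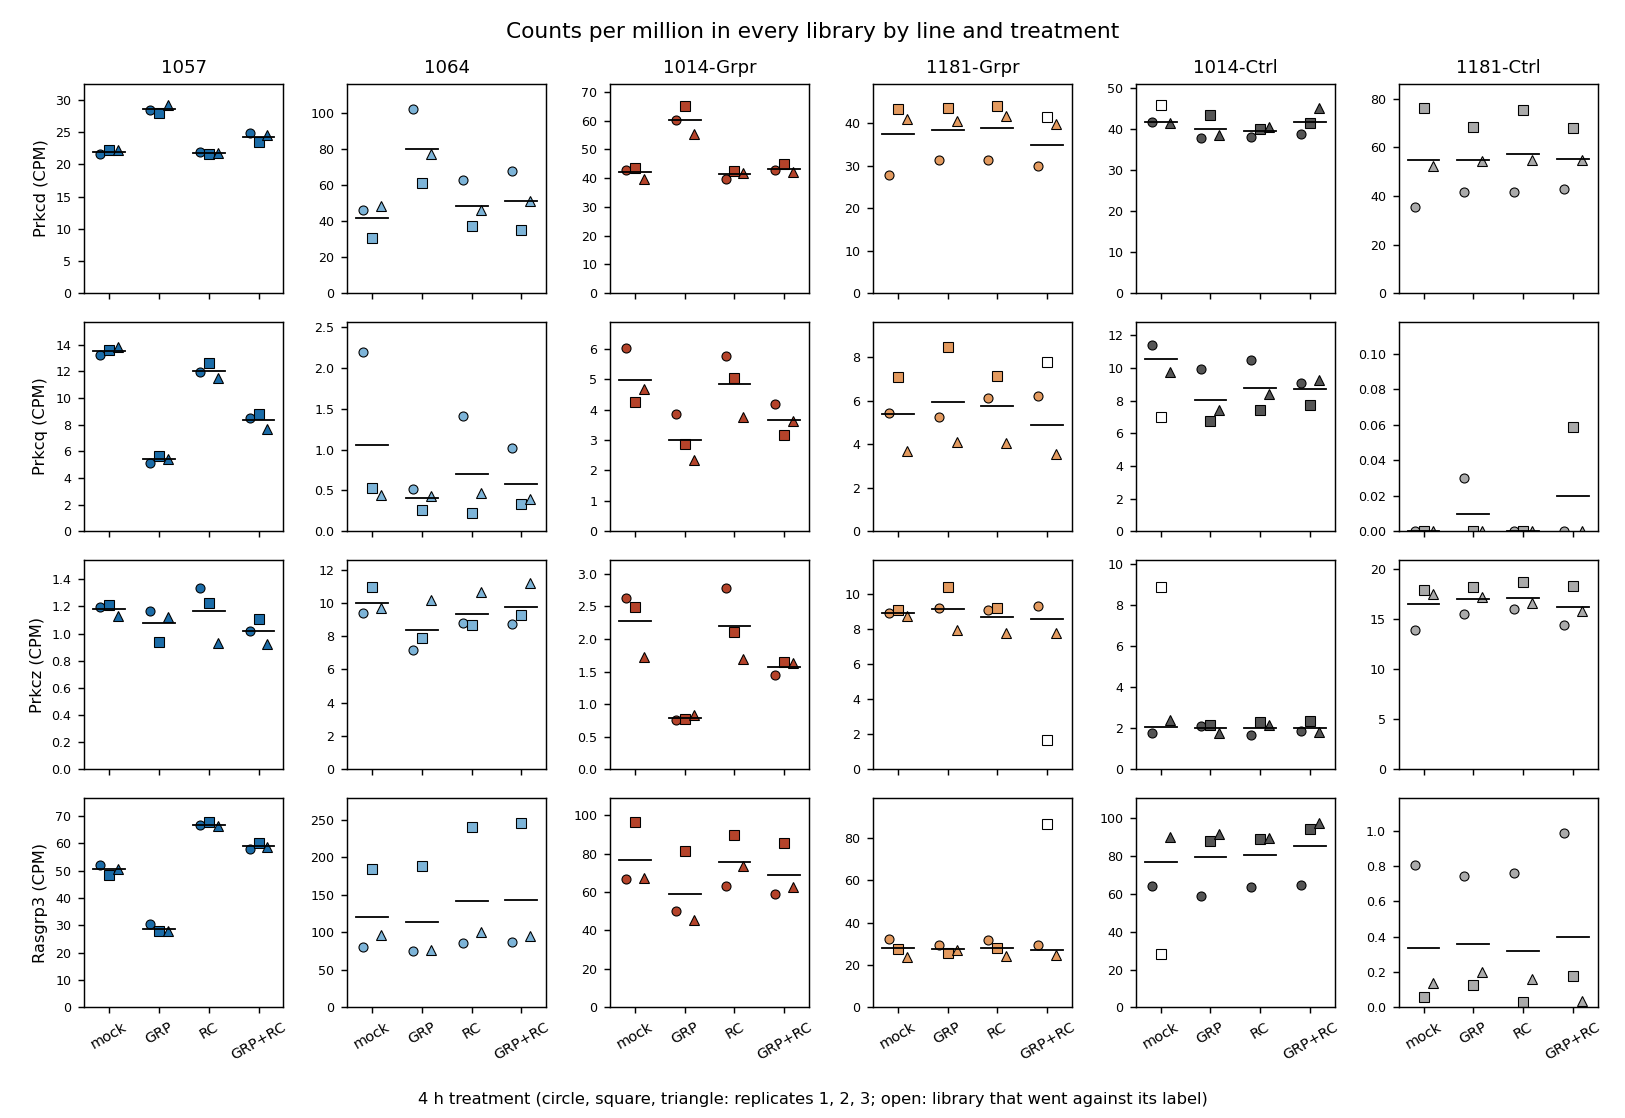
CPM (y axes, linear from 0) of Prkcd, Prkcq, Prkcz and Rasgrp3 (rows) by treatment (x axis) in each line (columns), with circles, squares and triangles for replicates 1, 2 and 3, bars for means, and open symbols for the 2 libraries left out of the means. In 1057 the GRP libraries stand clear of mock for Prkcd, Prkcq and Rasgrp3, and in 1014-Grpr for Prkcd, Prkcq and Prkcz, while none of these genes passed in 1181-Grpr and the control lines.

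Prkcd passed in 1057 and 1014-Grpr. In 1057 it stood at 21.6, 22.2 and 22.3 CPM in mock and at 28.5, 28.0 and 29.2 CPM after GRP, a log2 fold change of 0.40 ± 0.0435 (SE, adjusted p = 3.18e-07, edgeR). In 1014-Grpr it went from 42.9, 43.7 and 39.6 to 60.4, 65.0 and 55.3 CPM, a log2 fold change of 0.53 ± 0.0698 (adjusted p = 0.000183). The groups did not overlap in either line. In 1064 it went from 46.2, 30.5 and 48.4 to 102, 61.1 and 77.5 CPM, with each replicate higher than its own mock and no overlap. The log2 fold change of 0.95 ± 0.293 in 1064 missed the threshold (adjusted p = 0.0836). It passed with the replicate block (0.94 ± 0.0912, adjusted p = 8.64e-05), with DESeq2 (adjusted p = 0.0204) and in 1 fit of all lines (adjusted p = 0.00116). In that 1 fit the rises of Prkcd in 1057 (adjusted p = 0.287) and 1014-Grpr (adjusted p = 0.112) did not pass. In 1181-Grpr the groups overlapped (27.8, 43.4 and 41.0 against 31.4, 43.4 and 40.4 CPM), with a log2 fold change of 0.04 ± 0.204.

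Prkcq moved the opposite way. In 1057 it fell from 13.2, 13.6 and 13.8 CPM to 5.10, 5.67 and 5.40 CPM, a log2 fold change of -1.30 ± 0.0731 (adjusted p = 4.10e-11). In 1014-Grpr it fell from 6.04, 4.25 and 4.68 to 3.85, 2.86 and 2.33 CPM, a log2 fold change of -0.73 ± 0.226 (adjusted p = 0.0286), again without overlap. Without replicate 1, 2 or 3 this missed the threshold (adjusted p = 0.0512, 0.116 and 0.115), as it did in 1 fit of all lines (adjusted p = 0.187). In 1064 the gene is near the floor, at 2.19, 0.530 and 0.447 CPM in mock and 0.514, 0.256 and 0.435 after GRP, and these groups overlapped. Its log2 fold change there was -1.37 ± 0.809 (adjusted p = 0.366), or -1.25 ± 0.384 with the block (adjusted p = 0.0223), and replicate 1 held most of the difference. 1181-Grpr, with 5.45, 7.10 and 3.70 CPM in mock and 5.25, 8.48 and 4.13 after GRP, gave 0.14 ± 0.347.

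Rasgrp3, the exchange factor through which diacylglycerol reaches RAS, fell in 1057 from 52.0, 48.5 and 50.8 to 30.5, 27.9 and 28.0 CPM, a log2 fold change of -0.78 ± 0.0427 (adjusted p = 2.57e-11). This fall did not pass in 1 fit of all lines (adjusted p = 0.178). In 1014-Grpr it went from 66.8, 96.5 and 67.2 to 50.0, 81.2 and 45.3 CPM. The groups overlapped because replicate 2 was high in both, yet each replicate was lower than its own mock, and the log2 fold change of -0.38 ± 0.231 (adjusted p = 0.249) became -0.40 ± 0.0681 with the block (adjusted p = 6.78e-05), and it also passed without the filter on low counts (adjusted p = 0.0346). In 1064 it was -0.08 ± 0.562, with 74.7, 188 and 76.9 CPM after GRP. In 1181-Grpr, with 29.3, 25.7 and 27.3 CPM after GRP, it was -0.03 ± 0.134.

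Prkcz responded in 1014-Grpr, where it fell from 2.63, 2.49 and 1.72 to 0.755, 0.765 and 0.837 CPM, a log2 fold change of -1.53 ± 0.234 (adjusted p = 0.000486), with no overlap. In 1064, at a level several times higher, it stood at 9.38, 11 and 9.71 CPM in mock and 7.15, 7.88 and 10.2 after GRP (log2 fold change -0.25 ± 0.172), in 1057 at 1.19, 1.21 and 1.13 against 1.16, 0.941 and 1.12 (-0.11 ± 0.187), and in 1181-Grpr at 8.91, 9.09 and 8.74 against 9.20, 10.4 and 7.93 (0.04 ± 0.127). None of those 3 passed. Of the remaining genes, Prkci was higher in 1014-Grpr after GRP (61.2, 65.2 and 60.8 against 65.9, 74.1 and 73.3 CPM, log2 fold change 0.20 ± 0.0687, adjusted p = 0.0486). This missed the threshold without any 1 replicate (adjusted p from 0.0731 to 0.274), without the filter (0.165) and in 1 fit of all lines (0.343). Prkce, at -0.30 ± 0.282 in 1064 (54.7, 34.2 and 31.5 against 43.3, 26.5 and 27.5 CPM), passed with the block only (-0.29 ± 0.0619, adjusted p = 0.00336). Prkca, the most abundant conventional isoform, passed in no line, its log2 fold changes running from -0.14 ± 0.233 in 1064 to 0.06 ± 0.163 in 1014-Grpr.

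In the control lines, which lack the receptor, 0 of 7 genes passed in 1014-Ctrl and 0 of 6 in 1181-Ctrl, and of all genes 0% passed in either, with 200 and 37 genes at an unadjusted p under 0.05 in edgeR. DESeq2 called 0 of these genes as well, but its share over all genes is not given here. Prkcq in 1014-Ctrl stood at 11.4 and 9.74 CPM in mock against 9.95, 6.73 and 7.45 after GRP (log2 fold change -0.40 ± 0.176, adjusted p = 1.00), which is the same direction as in 1014-Grpr.

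Whether GRP acted differently in the Grpr line and its control was tested as the difference of the 2 effects. In 1014, 2 of 7 genes passed (16.8% of all genes). The effect on Prkcd was higher in 1014-Grpr by 0.60 ± 0.105 (log2, adjusted p = 0.000531), and that on Prkcz lower, by -1.47 ± 0.319 (adjusted p = 0.00311). The Prkcz difference moved with the mock libraries of 1014-Ctrl. With the library that went against its label, which held 8.88 CPM of Prkcz where the other 2 held 1.75 and 2.40, it was -0.42 (adjusted p = 0.673), and it was -1.10 without replicate 1 (adjusted p = 0.123) and -1.35 without replicate 2 (adjusted p = 0.0704). The Prkcd difference was 0.64 with all 72 libraries (adjusted p = 0.000494), and 0.55 without replicate 1 (adjusted p = 0.0537). The difference for Prkcq did not pass (-0.34 ± 0.297, adjusted p = 0.496), so its fall in 1014-Grpr was not shown to exceed that in 1014-Ctrl. With the replicate block, Prkci (0.24, adjusted p = 0.00114) and Rasgrp3 (-0.34, adjusted p = 0.00360) passed as well, where 39.3% of all genes did, and Rasgrp3 did so without the filter (adjusted p = 0.00798). In 1181, 0 of 8 genes passed (0% of all genes, 87 of 15286 at an unadjusted p under 0.05). The mock and GRP libraries of a line enter both this test and the test within the line.

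The effect of GRP was also compared between each pair of the GRPR-expressing lines, in 1 fit of all lines, a comparison added after the data were seen. Without the block, Prkcz was the only one of these genes that passed, while 1.44%, 5.14% and 5.56% of all genes passed for 1057 against 1064, 1057 against 1181-Grpr and 1064 against 1181-Grpr. Its effect in 1014-Grpr differed from that in 1057 (log2 difference, 1057 minus 1014-Grpr, 1.41 ± 0.259, adjusted p = 0.000283, 3.22% of all genes passing), in 1064 (1.29 ± 0.238, adjusted p = 0.00120, 1.15% of all genes) and in 1181-Grpr (1014-Grpr minus 1181-Grpr, -1.58 ± 0.237, adjusted p = 1.59e-05, 3.4% of all genes). With the replicate block, other genes passed too. The effect on Prkcd in 1064 exceeded that in 1014-Grpr by 0.43 ± 0.0898 (adjusted p = 0.000369, 20% of all genes passing), and the effect on Rasgrp3 was lower in 1057 than in 1014-Grpr (1057 minus 1014-Grpr, -0.39 ± 0.0942, adjusted p = 0.00110, 24.1% of all genes). The effect on Prkcq was lower in 1014-Grpr than in 1181-Grpr (-0.86 ± 0.179, adjusted p = 0.000182, 31.9% of all genes). Against 1181-Grpr the effect on Prkcd was higher by 0.33 in 1057 (adjusted p = 0.00689, 30.1% of all genes) and by 0.89 in 1064 (adjusted p = 1.60e-10, 32.6% of all genes), and it was lower in 1057 than in 1064 by -0.55 (adjusted p = 1.89e-05, 20.9% of all genes). In all, 21 of 48 such differences passed with the block and 3 without, although the numbers do not pair the libraries of 1057. Those of Prkcd numbered 5 of 6, of Rasgrp3 5 of 6, of Prkcq 4 of 6, of Prkce 3 of 6, of Prkcz 3 of 6 and of Prkci 1 of 6. The effect on Rasgrp3 was also lower in 1057 than elsewhere, by -0.67 from 1064 (adjusted p = 2.48e-07) and by -0.78 from 1181-Grpr (adjusted p = 3.53e-08), and that on Prkcq was lower in 1057 and 1064 than in 1181-Grpr by -1.44 (adjusted p = 1.08e-09) and -1.45 (adjusted p = 0.000654).

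**Figure D4:**
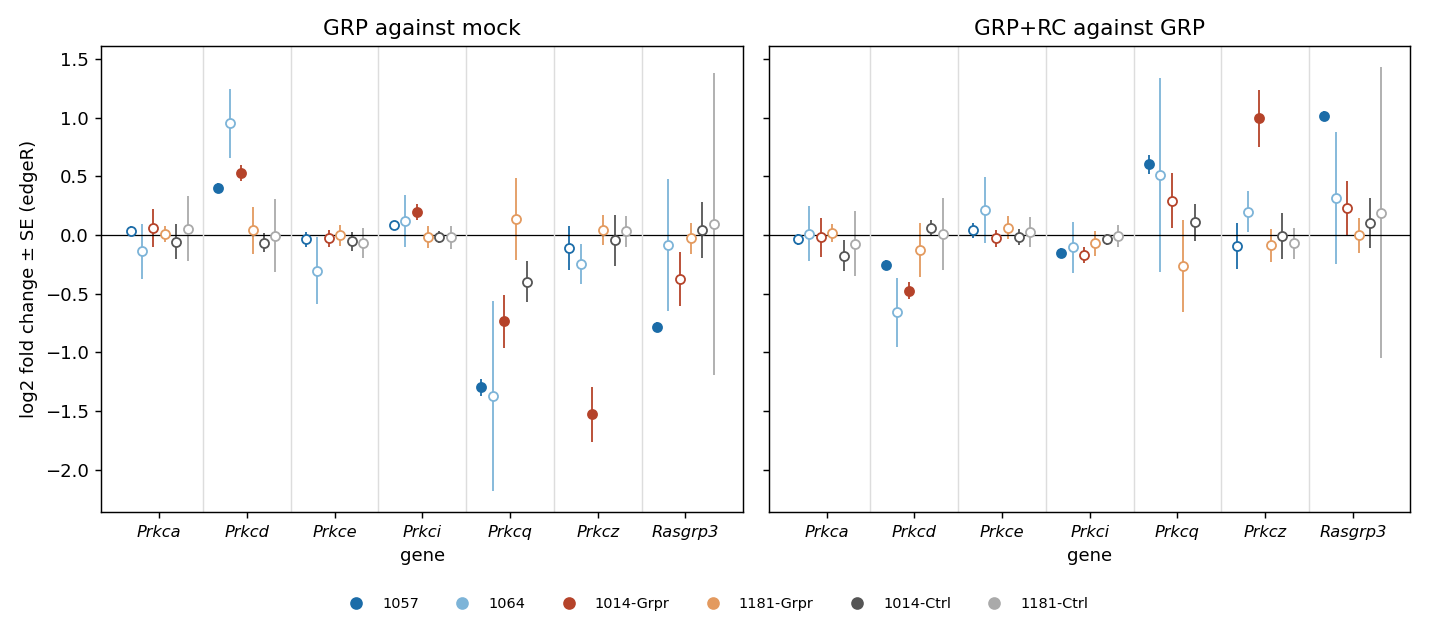
Log2 fold changes with SE (y axes, edgeR, 1 fit per line) of 7 genes (x axes) for GRP against mock (left) and GRP+RC against GRP (right), coloured by line. Filled points passed at an adjusted p under 0.05 without the replicate block. Prkcd is above 0 on the left and below 0 on the right in 1057, 1064 and 1014-Grpr, and Prkcq and Rasgrp3 in 1057 show the reverse. Both panels use the same GRP libraries, so opposite signs are in part built in.

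Whether the antagonist reversed these changes was asked next. Comparing GRP+RC with GRP in 1057, 4 of 8 genes passed (24.7% of all genes). Prkcd came down to 24.9, 23.5 and 24.5 CPM (log2 difference -0.26 ± 0.0431, adjusted p = 0.000209), between mock and GRP, Prkcq went up to 8.47, 8.80 and 7.70 CPM (0.60 ± 0.0782, adjusted p = 1.41e-05), likewise between, and Prkci was lower (-0.15 ± 0.0386, adjusted p = 0.00762; 0.0649 and 0.0715 without replicate 1 or 3). Against mock, the cells with both ligands still held more Prkcd (0.15 ± 0.0442, adjusted p = 0.0116, but 0.149 and 0.0647 without replicate 1 or 3). They held less Prkcq (-0.70 ± 0.0683, adjusted p = 1.56e-07). RC alone also left Prkcq lower, at 11.5 to 12.6 CPM against 13.2 to 13.8 in mock, which did not pass. The part of RC itself in the Prkcq left below mock was not tested. Rasgrp3 went past mock, and 3 of 8 genes passed for GRP+RC against mock (44.3% of all genes). Its GRP+RC libraries held 58.0, 60.2 and 58.7 CPM, up by 1.01 ± 0.0423 from GRP (adjusted p = 2.88e-11) and by 0.23 ± 0.0400 from mock (adjusted p = 0.000139).

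RC alone also raised Rasgrp3 in 1057, to 66.6, 67.6 and 66.3 CPM, above every mock library (log2 fold change 0.40 ± 0.0397, adjusted p = 7.39e-07). It was the 1 gene of 8 that passed for RC in 1057, where 24.3% of all genes did, so RC without added GRP moved many genes in this line. The Rasgrp3 libraries of 1057 thus did not overlap between treatments, lowest with GRP, then mock, then GRP+RC and highest with RC. The step from GRP+RC to RC was not tested. In 1 fit of all lines neither RC nor GRP+RC passed against mock. For RC none of these genes passed in any other line, and in 1064, 1014-Grpr, 1181-Grpr, 1014-Ctrl and 1181-Ctrl 0 of all genes did in edgeR, with 129, 161, 72, 288 and 39 at an unadjusted p under 0.05.

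In 1014-Grpr, 2 of 7 genes passed for GRP+RC against GRP (11.8% of all genes). Prkcd returned to 42.9, 44.9 and 42.3 CPM (-0.47 ± 0.0700, adjusted p = 0.000997; 0.0574 without replicate 1), which overlaps mock, and Prkcz to 1.45, 1.64 and 1.63 CPM (0.99 ± 0.243, adjusted p = 0.02; without replicate 1, 2 or 3 0.0966, 0.222 and 0.0524), above every GRP library and below every mock library. Against mock neither passed, with log2 differences of 0.05 ± 0.0705 for Prkcd and -0.53 ± 0.224 for Prkcz. In that contrast 0 of 7 genes passed, and only 0.947% of all genes did. Prkcq went to 4.17, 3.16 and 3.63 CPM, overlapping GRP, and its difference from GRP, 0.29 ± 0.232, did not pass. With the block, Prkci (-0.17, adjusted p = 0.00284) and Rasgrp3 (0.25, adjusted p = 0.00783) also passed against GRP (38.7% of all genes), and Prkcq stayed below mock (-0.43, adjusted p = 0.0428, 17.3% of all genes).

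In 1064, 0 of 7 genes passed for GRP+RC against GRP (0.029% of all genes). With the block, Prkcd was lower (67.7, 34.8 and 51.2 CPM after both ligands, -0.68 ± 0.0897, adjusted p = 0.00193), Rasgrp3 higher (0.29 ± 0.0729, adjusted p = 0.0182) and Prkce higher (0.22 ± 0.0617, adjusted p = 0.0305), where 21.2% of all genes passed. In 1181-Grpr 0 of 8 passed, where 0% of all genes did (119 of 14770 at an unadjusted p under 0.05, edgeR), and 0 of 7 passed with the library that went against its label.

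Genes that work with PKC and diacylglycerol were described from 7 lists, 69 genes in all. After GRP, 13 were higher and 20 lower of 57 tested in 1057 (25.7% and 26.9% of all genes), 3 higher and 1 lower of 57 in 1064 (3.62% and 2.76%), 8 higher and 9 lower of 54 in 1014-Grpr (16.3% and 12.7%), and none in 1181-Grpr or the control lines. The median log2 fold changes of the listed genes were -0.03, 0.08 and 0.10 in 1057, 1064 and 1014-Grpr, beside -0.01, -0.02 and -0.02 over all genes tested. With the replicate block, 16 were higher and 10 lower in 1064 (43.5% of all genes passing in either direction), and 22 higher and 12 lower in 1014-Grpr (53.6%).

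The diacylglycerol kinases turn the lipid into phosphatidic acid and so end its signal. Of these, 4 of 8 tested were higher and 1 lower in 1057 (25.7% and 26.9% of all genes). In 1064 1 of 7 was higher (3.62% of all genes), and in 1014-Grpr 2 of 8 were higher (16.3% of all genes). Dgkh rose by 1.08 in 1057 (adjusted p = 9.38e-06) and by 2.13 in 1014-Grpr (adjusted p = 1.11e-05) on the log2 scale, and stood at 1.02 in 1064 (adjusted p = 0.0573, or 0.000476 with the block). Dgkd rose by 0.63 in 1057 (adjusted p = 4.88e-12) and by 0.42 in 1014-Grpr (adjusted p = 0.000123), and Dgke rose by 0.19 in 1057 (adjusted p = 0.000298) and by 0.59 in 1064 (adjusted p = 0.0176). In 1057 mean Dgkd was 146 CPM in mock, 221 with GRP, 194 with RC and 230 with GRP+RC, and Dgkh was 3.26, 6.79, 4.82 and 7.24. For GRP+RC against GRP, 2 of 8 kinases were higher and 0 lower in 1057 (11% and 13.7% of all genes). In 1014-Grpr 0 were higher and 2 lower of 8 (3.71% and 8.06% of all genes). RC against mock was not tested for the listed genes. Of the PKC-related kinases, 1 was higher and 3 lower of 6 in 1057 (25.7% and 26.9% of all genes). In 1014-Grpr 2 were higher and 2 lower of 6 (16.3% and 12.7% of all genes). Pkn3, a PKC-related kinase, rose by 1.33 in 1057 (adjusted p = 1.77e-10) and by 1.08 in 1014-Grpr (adjusted p = 0.0139), and Pkn2 went in opposite directions, at -0.35 in 1057 (adjusted p = 5.51e-07) and 0.19 in 1014-Grpr (adjusted p = 0.0139).

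Of the PKC substrates, anchors and inhibitors, 1 was higher and 6 lower of 11 in 1057 (25.7% and 26.9% of all genes). In 1064 1 was higher and 1 lower of 13 (3.62% and 2.76% of all genes). In 1014-Grpr 0 were higher and 4 lower of 11 (16.3% and 12.7% of all genes). Ppp1r14c, one of the PKC-activated inhibitors of protein phosphatase 1, was the only named gene to pass in 3 lines, with log2 fold changes of -1.26 in 1057 (adjusted p = 3.23e-09), -1.01 in 1064 (adjusted p = 0.0311) and -0.99 in 1014-Grpr (adjusted p = 0.00214). Its relative Ppp1r14b was at -0.09 in 1057 (adjusted p = 0.0334) and 0.34 in 1064 (adjusted p = 0.0390). Cavin2, a PKC-binding protein of caveolae, fell by 0.94 in 1057 (adjusted p = 3.27e-14) and by 0.57 in 1014-Grpr (adjusted p = 0.00594). Among the other RAS exchange factors and RAS GTPase activators, 2 were higher and 3 lower of 9 in 1057 (25.7% and 26.9% of all genes). In 1064 1 was higher and 0 lower of 9 (3.62% and 2.76%), and in 1014-Grpr 2 higher and 1 lower of 9 (16.3% and 12.7%). Rasa1, which switches RAS off, rose by 0.66 in 1057 (adjusted p = 2.05e-09) and by 0.87 in 1064 (adjusted p = 0.0233), and Rasal2, of the same class, rose by 0.39 in 1057 (adjusted p = 4.67e-06) and by 0.55 in 1014-Grpr (adjusted p = 0.00530).

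Of the partners of atypical PKC in cell polarity, 1 was higher and 3 lower of 9 in 1057 (25.7% and 26.9% of all genes). In 1014-Grpr 1 was higher of 7 (16.3% of all genes). Pard6b was higher by 0.43 in 1057 (adjusted p = 0.000996) and by 0.48 in 1014-Grpr (adjusted p = 0.00317). Of the genes for priming and turnover of PKC, 2 were higher and 3 lower of 9 in 1057 (25.7% and 26.9% of all genes). In 1014-Grpr 1 was higher and 2 lower of 9 (16.3% and 12.7% of all genes). Phlpp1, a phosphatase that removes the priming phosphate of PKC, fell by 0.46 in 1057 (adjusted p = 2.43e-08) and by 0.74 in 1014-Grpr (adjusted p = 6.09e-05), and Mapkap1, a subunit of the mTOR complex 2 that adds such phosphates, fell by 0.15 (adjusted p = 0.00869) and by 0.17 (adjusted p = 0.0321). Of the other diacylglycerol-binding proteins, 2 were higher and 1 lower of 5 in 1057 (25.7% and 26.9% of all genes). None passed in the other lines, with only 4 tested in 1064 (3.62% and 2.76% of all genes) and 4 in 1014-Grpr (16.3% and 12.7%).

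Genes with the pattern most like each of these were sought over the 24 group means of log2 CPM (prior count 2) among 14035 genes. The points share their lines, so the likeness is mostly that of differences between lines, and is a description. For Rasgrp3 the closest were Akip1 (Pearson r = 0.995), Htatip2 (0.994) and Gng11 (0.993), and for Prkca Cabin1 (0.994), Hey1 (0.994) and Col27a1 (0.993). Prkce was closest to Zfp704 (0.991), Carmil3 (0.990) and Magi2 (0.989), and Prkcz to Sarm1 (0.987), Gng2 (0.984) and Atg7 (0.982). Prkcq was closest to Epha5 (0.971), Tarsl2 (0.968) and Wdr95 (0.961), and Prkcd to Slc39a13 (0.958), Serpinb6a (0.948) and Acss1 (0.946). For Prkci, which hardly varied, the closest were Agfg1 (0.868), Lclat1 (0.797) and Sdc1 (0.791). By Spearman's rho Slc39a13 remained the first for Prkcd (0.965), and for Prkci Lclat1 came first (0.816) and Agfg1 only 14th, while no other first gene kept its place.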

How the data were processed

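RNA was measured by polyA-selected, strand-specific RNA-seq of 72 libraries of 6 mouse melanoma lines. The authors aligned paired reads with STAR to GRCm38 with GENCODE annotation, and their processing notes also name FastQC 0.11.5. The counts were deposited by the authors as raw reads per gene, with no normalization. The authors also deposited TPM values, scaled per transcript length and library. The 12 columns of 1057 in that table are written with another decimal mark, a comma, which was read as a point; these values, listed under the unit other, were used like the rest. Gene positions and exon overlaps came from GENCODE M21 (99.6% of 50600 genes matched); no exon base of the genes described was shared with another gene except 0.334% of Prkca. The isoforms are distinct genes, and sequence similarity between them was not examined.

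Computed here were CPM over all libraries (TMM) and edgeR 4.0.16 quasi-likelihood tests (R 4.3.3, filterByExpr, TMM) in 1 fit per line for treatments, 1 per Grpr and control pair for their differences, and 1 of the mock libraries for lines at rest. The Benjamini-Hochberg threshold was 0.05, and SEs are log2 fold changes over the root of F. The absolute log2 fold change of 1 that the study used was an alternative, as were DESeq2 1.42.0, no filter, 1 fit of all lines, all 72 libraries and each replicate left out. In simulated data the fits recovered most of the largest known changes. Those data had the same spread for every gene and no effect of replicate, unlike the libraries here. The genes, the lists and the tests were chosen with earlier results of these data known. Named list genes are up to 3 per list with the largest mean change among those passing in 2 or more GRPR-expressing lines, less 1 gene that is not reported here, and the 3 genes most like each are by Pearson's r. Grpr, Ddx3y and Xist checked the labels.

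Replicates are separate libraries of 1 line. The study's methods describe work on cultured cells as repeated in biological replicates, while the labels tie no library to a culture of its own, so p-values measure the spread between libraries, which may in part be technical. No 2 replicates were copies (their chi-square over degrees of freedom was at least 2.56). Same-numbered replicates deviated together in all lines but 1057: the lowest correlation of their deviations was 0.555 in 1064, 0.303 in 1014-Grpr, 0.461 in 1181-Grpr, 0.310 in 1014-Ctrl, 0.738 in 1181-Ctrl and -0.124 in 1057, where a threshold of 0.1 was set. The pairing comes from the numbers in the labels and this check alone. Totals of 19512882 to 46862053 counts put the floor of 3 counts at no more than 0.159 CPM, and floors cover counting error only. Promoters are from RefSeq (GRCm38.p6), and 2 of the genes, Prkce and Prkch, had no entry there. Figures used matplotlib.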

Additional observations from a re-analysis of the deposited data

Results flagged for a closer look

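Differences between lines in the effect of GRP were picked out where the test of the difference itself passed (edgeR, Benjamini-Hochberg). In 1014-Grpr against 1014-Ctrl they were those of Prkcd (log2 difference 0.60, adjusted p = 0.000531) and Prkcz (-1.47, adjusted p = 0.00311). Between GRPR-expressing lines they were those of Prkcz, at 1.41 for 1057 minus 1014-Grpr (adjusted p = 0.000283), 1.29 for 1064 minus 1014-Grpr (adjusted p = 0.00120) and -1.58 for 1014-Grpr minus 1181-Grpr (adjusted p = 1.59e-05). Prkcz fell in 3 of 3 libraries of 1014-Grpr, from 2.28 ± 0.488 to 0.785 ± 0.0448 CPM (SD, n = 3), and all 5 differences use the same 3 mock and 3 GRP libraries of 1014-Grpr. Groups of 2 or 3 libraries are too small for a test of single far-off libraries.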

How the results depend on the processing

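The 24 single results that passed kept their direction in every alternative. All 24 still passed with DESeq2, 22 without the filter and 22 with all 72 libraries, 8 in 1 fit of all lines, 7 with the log2 fold change above 1, and 15, 18 and 17 without replicates 1, 2 and 3. With the replicate block within each line, all 19 that compare treatments or GRP effects passed. Summed over the GRPR-expressing lines, 7 calls for GRP against mock became 11 with the replicate block, 3 in 1 fit of all lines and 2 with the fold threshold. The 3 in 1 fit were Prkcq in 1057, Prkcz in 1014-Grpr and Prkcd in 1064, the last not called by the main fit. Of all genes, 21.8% passed in the main fit. In 1057, 1064, 1014-Grpr and 1181-Grpr, 53%, 43.5%, 53.6% and 0.454% passed with the block, and 6.46%, 2.32%, 4.01% and 0% with the fold. The 6 for GRP+RC against GRP became 12 with the block, 1 in 1 fit and 1 with the fold, and lay between 3 and 5 when 1 replicate was dropped. Of all genes, 9.07% passed for this contrast in the main fit. In the same order of lines, 25.3%, 21.2%, 38.7% and 0.0406% passed with the block, and 1.02%, 0.0145%, 1.73% and 0% with the fold. The 3 for GRP+RC against mock and the 1 for RC against mock became 0 in 1 fit and 0 with the fold. In the main fit 11.4% and 6.1% of all genes passed for these 2 contrasts. The 2 differences of GRP effects between Grpr and control lines became 4 with the block, 1 with all 72 libraries, 1 in 1 fit and 1 with the fold, and lay between 0 and 2 when 1 replicate was dropped. Of all genes, 8.15% passed in the main fit. In 1014, 39.3% passed with the block, 13.6% with all 72 libraries and 2.99% with the fold, and in 1181 0% each time. The 5 differences between Grpr and control lines in mock (10.8% of all genes) became 3 with the fold (0.875% of all genes in 1014 and 8.07% in 1181). They lay between 3 and 7 when 1 replicate was dropped. For treatments within a line, and for GRP effects between a Grpr line and its control, the block changed no other call in the paired lines than those given, and in 1057, where the numbers do not pair, it added Prkch for GRP+RC against GRP (-0.88, adjusted p = 0.0397). The 65 calls between lines at rest (48.2% of all gene tests in the main fit) lay between 47 and 71. For these counts, shares of all genes in 1 fit of all lines and with 1 replicate dropped are not given here. A block within each line cannot give a difference between lines in mock. A replicate block of numbers common to the lines, chosen after seeing the data and with no source that the lines share them, left 65 calls at rest (1 lost, 1 gained) and gave 7 in place of 5 between Grpr and control lines, adding Prkca (-0.55, adjusted p = 0.0135) and Prkcd (-0.54, adjusted p = 0.000132) in 1181, where 39.8% of all genes passed. One fit of all lines sets 1 spread for lines that differed in theirs. Which cause lies behind the other shifts was not tested. Where an arm was left with 1 library, it was assumed to vary like the other groups. Depth limits Prkcb, Rasgrp1 and Prkch, and Prkcq in 1064 and 1181-Ctrl.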

Other observations

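The 2 libraries that went against their labels can be set beside both pairs of lines. The library labelled 1014-Ctrl mock replicate 2 held Prkcz at 8.88 CPM, Rasgrp3 at 28.0 and Prkca at 121, where the other 1014-Ctrl libraries ran from 1.67 to 2.40, 58.8 to 97.3 and 68.1 to 103 CPM, and those of 1181-Grpr from 7.76 to 10.4, 23.7 to 32.5 and 112 to 127 CPM. The library labelled 1181-Grpr GRP+RC replicate 2 held Prkcz at 1.68 CPM, Rasgrp3 at 86.9 and Prkca at 65.8. Prkcq, at 7.02 CPM in the first of these libraries and 7.78 in the second, lay within the ranges of both lines. Which samples they are was not tested, and both stay unassigned to any other line.

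Levels of Prkcd in 1181-Ctrl split by replicate number in every treatment, with replicate 1 at 35.3 to 42.9 CPM, replicate 2 at 68.1 to 76.3 and replicate 3 at 52.5 to 55.0.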
